A study of Mus musculus with 20 samples.

Results

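Cutaneous squamous cell carcinomas (cSCC) from double-knockout mice (DKO cSCC, 3 libraries) were compared with epidermis of old wild-type mice (old WT, 2 libraries). These are 5 of the 20 RNA libraries of the study, and all genes of its count table were considered, of which 16526 of 51123 passed the filter on low counts and were tested. The DKO mice were K14cre;Wwoxfl/fl;p53fl/fl: a keratin 14 promoter drives Cre recombinase in keratinocytes, where it deletes the floxed alleles of Wwox and of Trp53, the gene of p53. The control mice are labelled WT, with no Cre named, and were at least 400 days old. Mice were followed for tumours that arose spontaneously and were taken when a tumour was found, at an age that the labels do not state. In all 5 libraries cells positive for the fluorescent protein tdTomato were sorted from the dissociated tissue, and total RNA was sequenced from 5 ng per sample. The cell type label reads keratinocyte for the epidermis and cSCC for the tumours. The labels number the samples of a group as biological replicates without saying whether each is a separate animal. Genotype, tumour state and possibly age differ together between the groups, so their parts cannot be told apart. Carcinomas of K14cre;p53fl/fl mice (PKO cSCC, 3 libraries) entered the same statistical fit to estimate the spread.

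WWOX is an oxidoreductase with WW domains through which it binds other proteins, and it is lost in many carcinomas. p53 is a transcription factor that halts the cell cycle or starts cell death after DNA damage, and its gene is among the most often mutated in human cSCC. In healthy epidermis, dividing basal keratinocytes rest on a basement membrane and express keratins 5 and 14. Their daughters move outward, switch to keratins 1 and 10, and end as cornified cells. At a wound, and in many squamous tumours, keratinocytes turn on a separate set of keratins (6, 16 and 17), proteases and cytokines. A loosening of cell junctions with gain of mesenchymal genes, the epithelial to mesenchymal transition (EMT), is described in invasive carcinomas.

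The 5 libraries held 12600587 (old WT 2) to 16784240 (DKO cSCC 1) counts, of which mitochondrial ribosomal RNA took 29.3% to 40.9%. Levels are given in CPM, counts scaled to a common library total with the trimmed mean of M-values (TMM), and are listed for DKO cSCC 1, 2 and 3 and old WT 1 and 2 in that order. Krt14, the keratin of basal keratinocytes, was high in every library, at 8635, 13580.1 and 6583 CPM in DKO cSCC, against 1786 and 511 CPM in old WT. Cells had been sorted for tdTomato, yet RNA of genes known from other cell types was detected, at unequal levels. Summed milk and mammary gland genes came to 193, 152 and 114 CPM in DKO cSCC, against 569 and 28492 CPM in old WT, so that old WT 2 stood far above the rest. Macrophage and neutrophil markers summed to 95.7, 145 and 512 CPM in DKO cSCC, against 46.6 and 1379 CPM in old WT, and fibroblast markers to 1101, 1851 and 1336 CPM in DKO cSCC, against 161 and 1039 CPM in old WT. Melanocyte and Schwann cell markers, at 76.6, 142 and 870.0 CPM in DKO cSCC, against 184 and 495 CPM in old WT, and endothelial and mural markers, at 265, 375 and 1278 CPM in DKO cSCC, against 271 and 783 CPM in old WT, were highest in the library labelled DKO cSCC 3. On the first principal component of the 8 tumour and old epidermis libraries (37.7% of the variance), that library lay at 62.2, between DKO cSCC 1 and 2 at -42.6 and -40.4 and old WT at 89.4 and 133. Sex also differed: Xist, made from the silenced X in female cells, was at 466, 13.9 and 0.0892 CPM in DKO cSCC, against 1123 and 763 CPM in old WT. The Y-linked Eif2s3y was at 0, 26.8 and 23.8 CPM in DKO cSCC, against 0 and 0 CPM in old WT. The part of these cell types, of sex and of depth in the results was not tested. In bulk RNA, fewer cells of a type and less RNA per cell cannot be told apart.

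The targeted genes check the labels. Wwox (ENSMUSG00000004637, chromosome 8) was at 0.444, 1.31 and 1.87 CPM in DKO cSCC, against 11 and 17.2 CPM in old WT. Every DKO cSCC library lay below both old WT libraries (log2 fold change -3.52, SE 0.59, edgeR adjusted p = 0.164), and the difference passed in a fit of all 20 libraries (edgeR adjusted p = 0.0327). Trp53 (ENSMUSG00000059552, chromosome 11) was at 2.74, 2.86 and 45.5 CPM in DKO cSCC, against 34.5 and 25.7 CPM in old WT. DKO cSCC 1 and 2 were low, while the library labelled DKO cSCC 3 was above both controls, which goes against its label (log2 fold change -0.83, SE 1.19, edgeR adjusted p = 0.766, and a log2 fold change of -3.39 without that library). Cdkn2a, which encodes the cell cycle inhibitors p16 and Arf, split the same 3 libraries, with 134, 55.8 and 0.624 CPM in DKO cSCC, against 0.164 and 1.67 CPM in old WT. It was high in DKO cSCC 1 and 2, and at the old WT level in the library labelled DKO cSCC 3. PKO cSCC, whose labels name the p53 deletion as well, had 38.5, 57.0 and 59.2 CPM of Cdkn2a. For each pathway list, counts without the library labelled DKO cSCC 3 and without old WT 2 stand beside the main ones where they moved by more than 1.5 times. Counts without old WT 1 are given for some lists only.

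**Figure D1:**
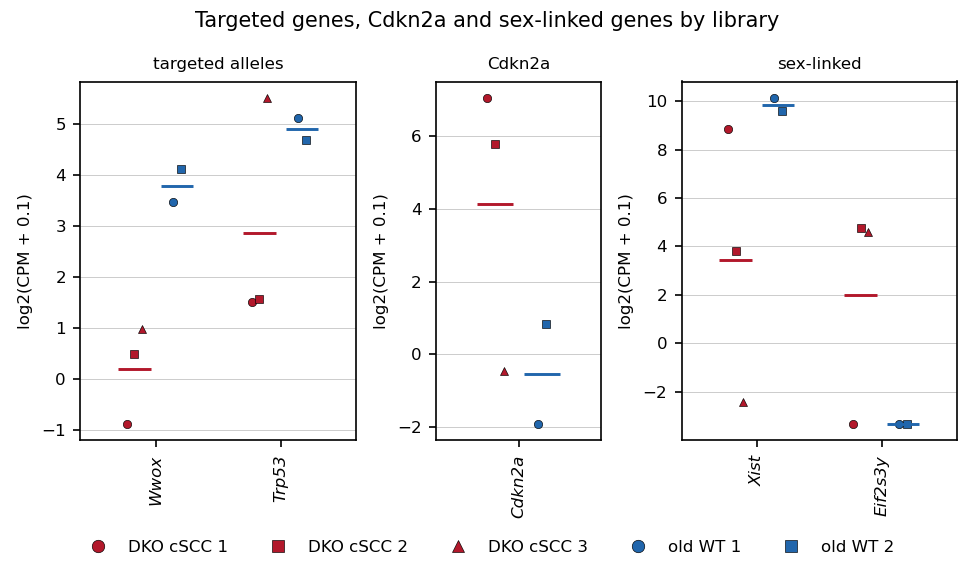
Levels of Wwox, Trp53, Cdkn2a, Xist and Eif2s3y in each library, as log2(CPM + 0.1). Red symbols are the 3 DKO cSCC libraries, blue symbols the 2 old WT libraries, and bars the mean of the log values; the triangle of DKO cSCC 3 stands apart from the other red symbols for Trp53 (45.5 CPM) and Cdkn2a (0.624 CPM), but not for Wwox.

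All 3 carcinoma libraries lay above both controls for 29 of 30 mitosis genes, 16 of 29 wound keratinocyte genes, 11 of 23 basement membrane genes and 12 of 24 glycolysis enzymes. They all lay below both controls for all 4 tested simple epithelial keratins, 10 of 36 junction genes and 13 of 23 T cell markers. Across all genes, edgeR's quasi-likelihood test called 0 of 16526 genes at an adjusted p under 0.05, with a smallest adjusted p of 0.103, so no single gene passed that test. At an unadjusted p under 0.05, 1369 genes (8.28%) were higher in DKO cSCC and 1033 (6.25%) were lower. Other ways of estimating the spread called more. The fit of all 20 libraries adds young epidermis, whose spread tumours need not share, so it was not the main test. A gene said to pass in it was not called by the main test. The fit of all 20 libraries called 450 genes higher (2.48%) and 338 lower (1.86%), DESeq2 on the same 8 libraries called 505 (3.06%) and 336 (2.03%), and limma voom with quality weights called 1 and 0. DESeq2 and the fit of 20 shared 559 called genes, all with the same direction in both. By sample, 2969 genes (18%) had all 3 DKO cSCC libraries above both old WT libraries, and 2789 (16.9%) had all 3 below. An exact two-sided permutation test of 3 against 2 cannot give a p below 0.2, so a gene with no overlap is a description. Among the genes higher with no overlap, the library labelled DKO cSCC 3 was the lowest of the 3 in 62.3%, against 36.6% of all genes tested. Without that library, 28.5% of all genes were higher and 27.9% lower with no overlap, and 30 of 30 mitosis genes were higher. Without old WT 2 the shares were 33% and 31.2%, with 29 mitosis genes higher, and without old WT 1 they were 30.5% and 31.8%. Without both DKO cSCC 3 and old WT 2 they were 42.1% and 39.8%. The counts of list members below are to be read against these shares: 18% higher and 16.9% lower with all 5 libraries, and 28.5% and 27.9%, or 33% and 31.2%, without DKO cSCC 3 or old WT 2. The level of the library labelled DKO cSCC 3 was the highest of the 3 in 57.9% of those lower with no overlap, against 39.9% of all genes tested.

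**Figure D2:**
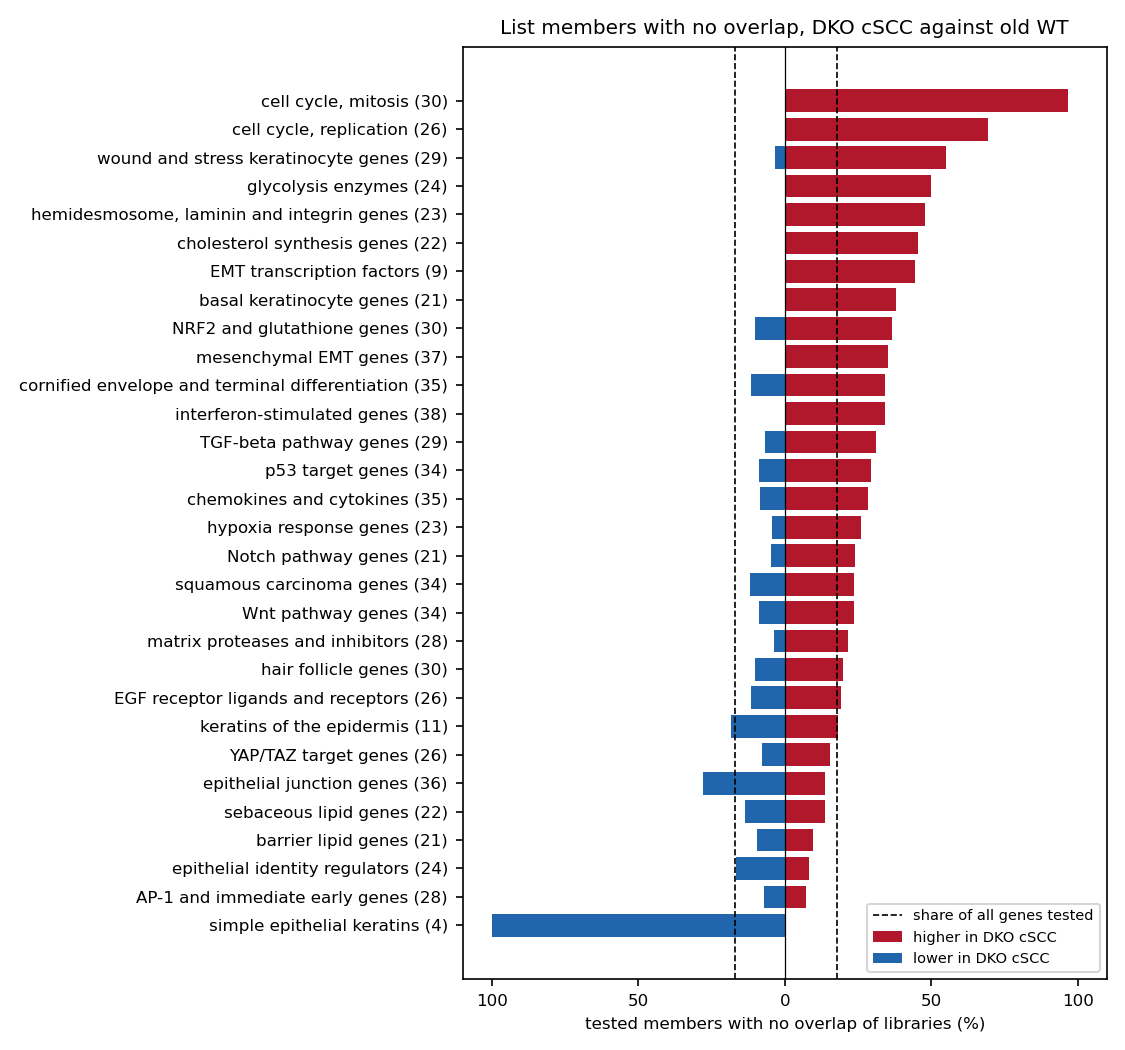
Share of the tested members of each gene list (number tested in parentheses) whose 3 DKO cSCC libraries all lay above (red, to the right) or all below (blue, to the left) both old WT libraries, in percent. Dashed lines mark the same shares over all 16526 genes, 18% and 16.9%; 29 of 30 mitosis members lay above, and all 4 tested simple epithelial keratins lay below.

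The mitosis list had the largest share of members higher in DKO cSCC of all lists. Of the mitosis list (30 members, all tested), 29 were higher in DKO cSCC with no overlap and 0 were lower, against 18% of all genes tested, and the median log2 fold change was 2.45, against 0.02 over all genes. The median was 2.59 without the library labelled DKO cSCC 3 and 2.29 without old WT 2. None of the 30 passed in the fit of 8 libraries; 25 passed in the fit of 20 and 28 with DESeq2, all higher. Ube2c, a ubiquitin-conjugating enzyme of the anaphase-promoting complex, was at 15.7, 19.6 and 12.8 CPM in DKO cSCC, against 1.56 and 1.29 CPM in old WT (log2 fold change 3.51, SE 0.57, edgeR adjusted p = 0.164). Its activator Cdc20 was at 22.8, 39.6 and 17.7 CPM in DKO cSCC, against 4.10 and 2.35 CPM in old WT. Both genes were several times higher in each tumour library than in either control. Kif20a, a kinesin of cytokinesis, was at 21.8, 30.8 and 22.6 CPM in DKO cSCC, against 3.28 and 4.10 CPM in old WT. Ccnb2, a B-type cyclin, was at 13, 19.3 and 10.6 CPM in DKO cSCC, against 3.03 and 1.75 CPM in old WT. Hmmr, a spindle protein that also binds hyaluronan, was at 24.9, 35.8 and 18 CPM in DKO cSCC, against 3.85 and 3.04 CPM in old WT. Foxm1, the transcription factor that drives many genes of this group, was at 33.7, 40.2 and 19.7 CPM in DKO cSCC, against 5.41 and 7.51 CPM in old WT (log2 fold change 2.30, SE 0.48, edgeR adjusted p = 0.167). Birc5, or survivin, was at 22.4, 31.9 and 9.81 CPM in DKO cSCC, against 1.64 and 1.90 CPM in old WT, with the library labelled DKO cSCC 3 below the other tumours and above both controls.

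The promoters of this group were read for 2 sequence elements that such genes are known to share, the cell cycle homology region core TTTGAA and the NF-Y box CCAAT, on both strands. RefSeq promoter windows of build GRCm38.p6, from 250 bases before to 50 after the gene's start, were found for 25 of the 30 mitosis genes (26 windows). TTTGAA was present in 76.9% of these windows, against 12.8% of the 14797 windows of all genes tested. CCAAT was present in 84.6%, against 37.5%, and both together in 73.1%, against 5.2%. In the replication list TTTGAA was in 16% of 25 windows and CCAAT in 72%. The windows of Ube2c (chr2:164769679-164769978, plus strand) and Hmmr (chr11:40733388-40733687, minus strand), the members with the smallest p among those that hold both elements, are printed to show how the elements lie, with each match in capitals (ATTGG and TTCAAA are the elements on the other strand).
Ube2c: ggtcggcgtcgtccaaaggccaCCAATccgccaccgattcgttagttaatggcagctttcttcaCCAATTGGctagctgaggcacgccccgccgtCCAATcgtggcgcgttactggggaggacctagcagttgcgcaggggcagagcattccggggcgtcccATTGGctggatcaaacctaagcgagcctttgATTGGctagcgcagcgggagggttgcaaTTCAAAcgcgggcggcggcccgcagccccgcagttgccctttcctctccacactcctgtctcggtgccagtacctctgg
Hmmr: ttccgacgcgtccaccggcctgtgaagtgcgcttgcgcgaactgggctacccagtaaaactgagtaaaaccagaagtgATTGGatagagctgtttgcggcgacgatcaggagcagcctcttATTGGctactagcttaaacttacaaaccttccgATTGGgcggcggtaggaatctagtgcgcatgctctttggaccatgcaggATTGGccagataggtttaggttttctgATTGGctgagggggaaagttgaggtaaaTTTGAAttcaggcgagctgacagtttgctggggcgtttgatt
Ube2c held 6 matches to CCAAT, of which a pair overlap on opposite strands, and 1 to TTTGAA that begins 29 bases before the start. Hmmr held 5 matches to CCAAT and 1 to TTTGAA that begins at base 9 after the start. A match is a description of these letters and not a measured binding site.

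DNA replication genes were less far apart. In the replication list, 18 of 26 tested members were higher in DKO cSCC with no overlap and 0 were lower, and the median log2 fold change was 1.32. The summed level of the list was 655, 1147 and 532 CPM in DKO cSCC, against 386 and 244 CPM in old WT, so the groups did not overlap, and the library labelled DKO cSCC 3 was the lowest of the tumours. Rrm2, a subunit of the enzyme that makes deoxyribonucleotides, was at 32.9, 39.3 and 17 CPM in DKO cSCC, against 4.84 and 5.01 CPM in old WT (log2 fold change 2.62, SE 0.53, edgeR adjusted p = 0.165). Clspn, a checkpoint protein at replication forks, was at 34.0, 46.4 and 26.8 CPM in DKO cSCC, against 10.6 and 6.68 CPM in old WT. Mcm10, a replication initiation factor, was at 20.5, 34.7 and 10.3 CPM in DKO cSCC, against 4.76 and 3.72 CPM in old WT. Mcm5, a subunit of the replicative helicase, was at 52.6, 95.1 and 40.6 CPM in DKO cSCC, against 18.2 and 10.9 CPM in old WT. Pcna, the sliding clamp of DNA polymerase, was at 52.1, 66.3 and 25.7 CPM in DKO cSCC, against 17.6 and 15.6 CPM in old WT. Only 3 of the 26 members passed in the fit of 20 libraries and 6 with DESeq2. A pair of histone H2B genes were among the 12 higher genes with the smallest p. Hist1h2be was at 44.5, 65.3 and 43.6 CPM in DKO cSCC, against 7.13 and 6.45 CPM in old WT. Hist2h2bb was at 95.1, 71.6 and 45.3 CPM in DKO cSCC, against 7.63 and 6.0 CPM in old WT (log2 fold change 3.40, SE 0.48, edgeR adjusted p = 0.163). Histone genes are near-identical copies, and the estimated counts split their shared reads, so the level of each copy is uncertain.

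The wound keratinocyte list had the highest median of the 30 pathway lists. Krt6a, a keratin that keratinocytes make at wound edges, was at 1425, 1698 and 779 CPM in DKO cSCC, against 9.76 and 13.1 CPM in old WT (log2 fold change 6.86, SE 1.03, edgeR adjusted p = 0.163). It passed in the fit of 20 libraries (edgeR adjusted p = 0.0159). Its partner Krt16 was at 759, 544 and 295 CPM in DKO cSCC, against 5.33 and 4.71 CPM in old WT. Krt6b was at 206, 289 and 224 CPM in DKO cSCC, against 0.820 and 0 CPM in old WT. Krt17 was at 1655, 1292 and 1186 CPM in DKO cSCC, against 277 and 131 CPM in old WT. In all 4 keratins every tumour library was above both controls, and Krt17 had the smallest gap between the groups. These keratins have close relatives, so part of the reads may be shared between them. Of 34 members of the wound list, 29 were tested: 16 of 29 tested members were higher in DKO cSCC with no overlap and 1 was lower. Members at or near 0 in old WT, such as Krt6b, Stfa3 and Il24, could pass the filter on low counts only through the carcinomas. Such members could hardly come out lower, so the counts and the median of this list are a description and no test. The median log2 fold change was 5.26, or 3.67 with the 5 members that stood at 0 in a whole group set at the bound that 3 counts over the group allow. Members with no overlap numbered 19 higher and 3 lower without old WT 2. Only 5 members passed in the fit of 20 and 12 with DESeq2, all higher. Stfa3, a stefin that inhibits cysteine proteases, was at 106, 299 and 9.99 CPM in DKO cSCC, against 0.410 and 0.228 CPM in old WT (log2 fold change 8.76, SE 1.79, edgeR adjusted p = 0.165), and it has close copies in the genome. Sprr1b, a precursor of the cornified envelope that is made early in wounds, was at 15.5, 21.6 and 12.1 CPM in DKO cSCC, against 0.164 and 0.683 CPM in old WT. Fabp5, a fatty acid carrier of keratinocytes, was at 203, 443 and 293 CPM in DKO cSCC, against 72.1 and 78.2 CPM in old WT. Il24, a cytokine of wound keratinocytes, was at 4.51, 6.34 and 0.268 CPM in DKO cSCC, against 0 and 0.0759 CPM in old WT (lowest of the tumours in the library labelled DKO cSCC 3).

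AP-1 is a dimer of Fos and Jun proteins that is known to act on many wound genes and binds TGANTCA. That motif, which reads alike on both strands, was in 38.5% of 26 promoter windows of the wound list (24 genes found) and 31.8% of 22 windows of the protease list (19 genes), against 5.97% of all 14797 windows, and in 0 of 26 windows of the mitosis list. The windows of Stfa3 (chr16:36455343-36455642, minus strand) and Sprr1b (chr3:92438730-92439029, minus strand), the members of these lists with the smallest p that hold it, are shown with the motif in capitals.
Stfa3: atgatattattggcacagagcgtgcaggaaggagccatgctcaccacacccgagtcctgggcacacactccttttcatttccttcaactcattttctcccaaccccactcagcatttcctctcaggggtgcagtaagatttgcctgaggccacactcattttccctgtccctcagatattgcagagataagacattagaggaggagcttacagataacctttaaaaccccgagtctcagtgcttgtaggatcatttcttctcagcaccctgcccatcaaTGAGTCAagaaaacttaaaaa
Sprr1b: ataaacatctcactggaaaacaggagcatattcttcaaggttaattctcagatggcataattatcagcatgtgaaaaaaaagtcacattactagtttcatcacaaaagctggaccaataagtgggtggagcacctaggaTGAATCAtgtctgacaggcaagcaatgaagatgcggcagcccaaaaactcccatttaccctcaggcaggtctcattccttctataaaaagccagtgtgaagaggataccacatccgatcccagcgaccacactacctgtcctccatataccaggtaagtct
The motif begins 111 bases before the start in Sprr1b and at base 30 after it in Stfa3. Of 28 tested members of the AP-1 and immediate early list, 2 were higher and 2 lower with no overlap, against 18% and 16.9% of all genes, with a median log2 fold change of -0.10. There were 8 higher and 4 lower without the library labelled DKO cSCC 3, and 5 higher and 12 lower without old WT 2. Leaving out old WT 1 instead gave 11 higher and 5 lower. Fosb, a Fos family member, was at 96.0, 98.6 and 122 CPM in DKO cSCC, against 1127 and 285 CPM in old WT, lower in every tumour library (log2 fold change -2.74, SE 0.84, edgeR adjusted p = 0.261).

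**Figure D3:**
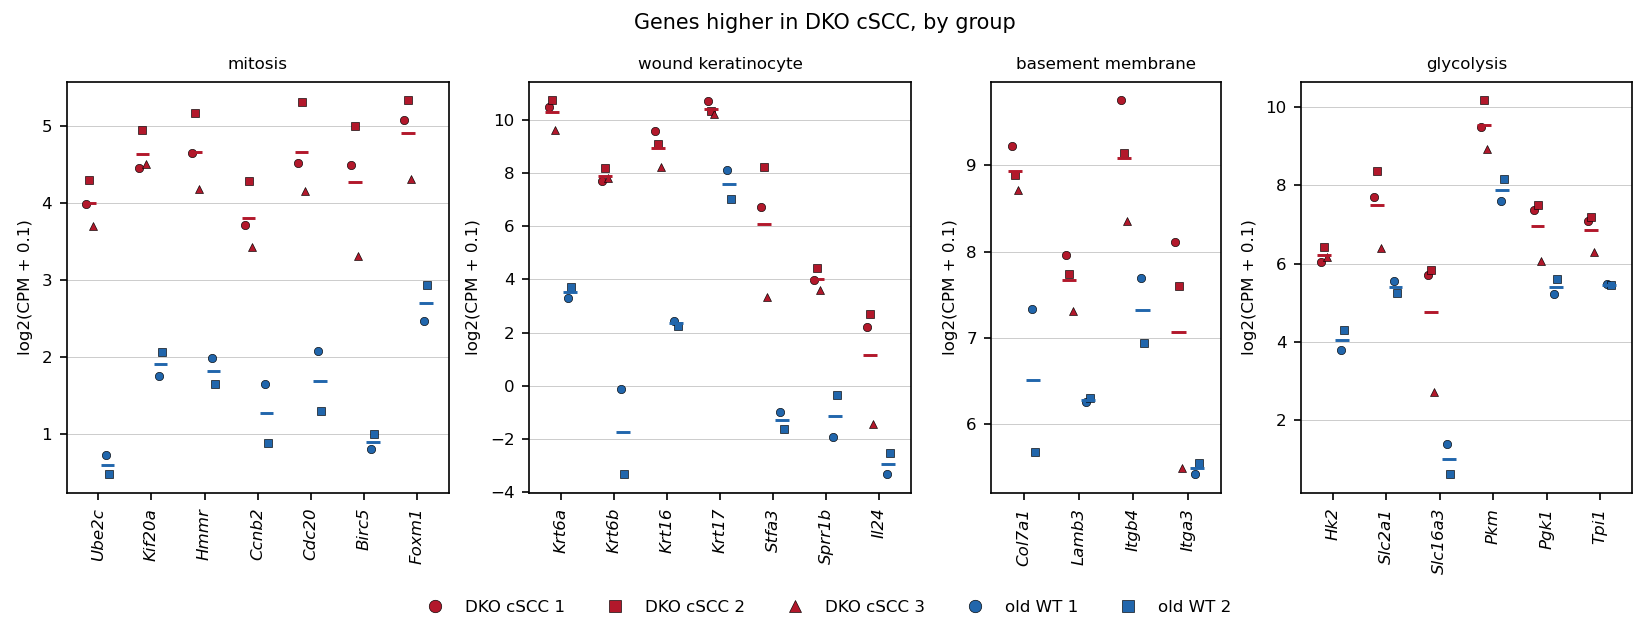
Levels by library of genes higher in DKO cSCC in 4 groups (mitosis, wound keratinocyte, basement membrane, glycolysis), as log2(CPM + 0.1); red symbols are DKO cSCC, blue symbols old WT, and bars the mean of the log values. Every red symbol lies above every blue one except for Itga3, where the triangle of DKO cSCC 3 (44.9 CPM) lies between the controls (42.7 and 47.0 CPM).

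Of the 11 keratins of the epidermis, 2 were higher with no overlap (Krt5 and Krt14, 18% of all genes) and 2 lower (Krt77 and Krt78, 16.9% of all genes). The list had 2 higher and 4 lower without the library labelled DKO cSCC 3, and 2 higher and 6 lower without old WT 2. Krt5, the basal partner of Krt14, was at 5703, 8160.2 and 4203 CPM in DKO cSCC, against 2576 and 743 CPM in old WT, and both were higher in every tumour library. Krt14 passed in the fit of 20 libraries (edgeR adjusted p = 0.0381) and Krt5 did not (edgeR adjusted p = 0.121). In the basal keratinocyte list, 8 of 21 tested members were higher in DKO cSCC with no overlap and 0 were lower (median log2 fold change 1.11). These counts became 16 higher and 0 lower without the library labelled DKO cSCC 3, and 12 higher and 2 lower without old WT 2. Krt1 and Krt10, the keratins of spinous cells, overlapped between the groups. Krt10 was at 119.5, 800.0 and 4918 CPM in DKO cSCC, against 5178 and 1752 CPM in old WT. Krt1 was at 119.6, 1395 and 3580.3 CPM in DKO cSCC, against 1679.6 and 705 CPM in old WT, both lowest in DKO cSCC 1 and highest in the library labelled DKO cSCC 3. Krt77, a suprabasal keratin, was at 4.44, 69.6 and 348 CPM in DKO cSCC, against 4471 and 1246 CPM in old WT. Krt78, a keratin of late differentiation, was at 0.962, 2.16 and 53.2 CPM in DKO cSCC, against 375 and 91.8 CPM in old WT. Both were lower in every tumour library, and again least so in the library labelled DKO cSCC 3. Krt15, a keratin of basal and follicle stem cells, was at 584, 1091 and 1591 CPM in DKO cSCC, against 3211 and 940.2 CPM in old WT. The other 4 overlapped as well. Krt79, a keratin of the upper hair follicle and sebaceous duct, was at 216, 866 and 2078 CPM in DKO cSCC, against 427 and 165 CPM in old WT. Krt80, a keratin of differentiating epithelia, was at 32.6, 43.6 and 158 CPM in DKO cSCC, against 451 and 114 CPM in old WT. Krt23 was at 4.96, 1.62 and 5.98 CPM in DKO cSCC, against 6.97 and 4.33 CPM in old WT. Krt2 was near the limit of detection, at 0, 0.773 and 0.0892 CPM in DKO cSCC, against 0.0820 and 0.0759 CPM in old WT.

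Terminal differentiation genes were far apart between the tumour libraries. Of 35 tested members of the cornified envelope list, 12 were higher with no overlap and 4 lower, and the median log2 fold change was 1.24, but 0.12 without the library labelled DKO cSCC 3. Members with no overlap numbered 13 higher and 8 lower without the library labelled DKO cSCC 3, and 13 higher and 9 lower without old WT 2. The summed level of the list was 1074, 3528 and 15982 CPM in DKO cSCC, against 12996 and 4419 CPM in old WT. Flg, or filaggrin, which bundles keratin in the cornified layer, was at 13.6, 49.5 and 4768 CPM in DKO cSCC, against 1.97 and 1.06 CPM in old WT, and its log2 fold change of 10.03 became 4.39 without that library. Kallikrein-related proteases, which cleave the links between cornified cells, were more even. Klk10 had the smallest unadjusted p of the genes higher in DKO cSCC that could be named, at 14.8, 14.1 and 17 CPM in DKO cSCC, against 1.80 and 1.37 CPM in old WT (log2 fold change 3.28, SE 0.37, edgeR adjusted p = 0.163), and passed in the fit of 20 (edgeR adjusted p = 0.0246). Klk7, which cleaves corneodesmosomes, was at 54.6, 44.8 and 99.4 CPM in DKO cSCC, against 9.76 and 3.95 CPM in old WT. Klk6 was at 5.40, 4.40 and 12.2 CPM in DKO cSCC, against 0.410 and 0.0759 CPM in old WT. Cst6, or cystatin M/E, which restrains the cathepsins of cornification, was at 129, 129 and 376 CPM in DKO cSCC, against 39.3 and 25.3 CPM in old WT. Every tumour library was above both controls for all 4 of these genes. In PKO cSCC, Klk10 averaged 16.1 CPM, Klk7 5.62 CPM and Cst6 4.41 CPM. The difference of DKO cSCC from PKO cSCC did not pass for Klk7 (log2 fold change 3.50, SE 0.53, edgeR adjusted p = 0.502) or Cst6 (5.50, SE 0.69, edgeR adjusted p = 0.392), in a comparison that called 1 gene higher (0.00605%).

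Anchoring of keratinocytes to the basement membrane was represented by 23 tested genes, of which 11 were higher with no overlap and 0 lower (median log2 fold change 1.02, and 1.52 without old WT 2). There were 17 higher and 0 lower without the library labelled DKO cSCC 3, and 18 higher and 1 lower without old WT 2. Col7a1, the collagen of anchoring fibrils, was at 596, 473 and 419.6 CPM in DKO cSCC, against 162 and 51.3 CPM in old WT (log2 fold change 2.23, SE 0.52, edgeR adjusted p = 0.189), and passed in the fit of 20 libraries (edgeR adjusted p = 0.0498). Lamb3, a chain of laminin-332, was at 249.6, 214 and 159 CPM in DKO cSCC, against 76.3 and 78.7 CPM in old WT. Itgb4, the integrin subunit of hemidesmosomes that binds this laminin, was at 864, 565 and 327 CPM in DKO cSCC, against 208 and 123 CPM in old WT. Every tumour library was above both controls for these 3 genes, by the least in Itgb4, where the library labelled DKO cSCC 3 came nearest. Itga3, the laminin-binding integrin subunit of focal contacts, was at 277, 194 and 44.9 CPM in DKO cSCC, against 42.7 and 47.0 CPM in old WT, so it overlapped through that library. Itga5, a subunit of the fibronectin receptor, was at 30.6, 32.9 and 22.5 CPM in DKO cSCC, against 1.23 and 11.8 CPM in old WT.

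The matrix proteases described here were lowest of the tumours in the library labelled DKO cSCC 3. Mmp13, a collagenase, was at 117, 72.3 and 1.16 CPM in DKO cSCC, against 0 and 1.21 CPM in old WT. Mmp10, or stromelysin-2, was at 9.84, 4.17 and 0.178 CPM in DKO cSCC and was not detected in old WT. With 3 counts in both controls together taken as the limit (0.118 CPM), the mean of the 3 tumour libraries was at least 40.0-fold higher. The library labelled DKO cSCC 3, at 0.178 CPM, lay near that limit. Mmp10 could pass the filter on low counts only through the carcinomas. Adamts1, a protease of proteoglycans, was at 175, 178 and 59.0 CPM in DKO cSCC, against 63.8 and 37.8 CPM in old WT. Mmp14, a membrane-bound protease that activates others, was at 116, 92.1 and 69.8 CPM in DKO cSCC, against 25.8 and 61.5 CPM in old WT. In the list of matrix proteases and inhibitors, 6 of 28 tested members were higher in DKO cSCC with no overlap and 1 was lower, against 18% and 16.9% of all genes, and 0 passed in the fit of 20. The list had 14 higher and 2 lower without the library labelled DKO cSCC 3, and 23 higher and 1 lower without old WT 2. Leaving out old WT 1 instead gave 8 higher and 8 lower. The median log2 fold change was 0.83, and 2.61 without old WT 2.

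The title of the study names EMT. Of 9 tested EMT transcription factors, 4 were higher with no overlap and 0 lower, against 18% and 16.9% of all genes, and none passed in the fit of 20, in which 2.48% of all genes were higher. These counts became 7 higher and 0 lower without old WT 2. Their median log2 fold change was 0.79 against old WT and -1.23 against young WT. The 4 higher with all 5 libraries were Snai2 and the scarce Twist2, Foxc2 and Snai1, each of these last 3 at 2.81 CPM or less in every DKO cSCC library. Tcf4 and Zeb2, at higher levels, overlapped between the groups (log2 fold change 0.16 and -0.66). Snai2, which represses E-cadherin and is also made in wound keratinocytes, was at 70.6, 53.5 and 28.5 CPM in DKO cSCC, against 23.8 and 10.5 CPM in old WT (log2 fold change 1.59, SE 0.50, edgeR adjusted p = 0.268). Among 37 mesenchymal genes, 13 were higher with no overlap and 0 lower, against the same shares, and 2 passed in the fit of 20. Members with no overlap numbered 33 higher and 0 lower without old WT 2, but 13 higher and 8 lower without old WT 1. Fscn1, or fascin, which bundles actin in cell protrusions, was at 54.5, 75.3 and 25.1 CPM in DKO cSCC, against 1.23 and 5.54 CPM in old WT (log2 fold change 3.97, SE 0.81, edgeR adjusted p = 0.165). Cd44, a hyaluronan receptor of basal and tumour keratinocytes, was at 303, 393 and 318 CPM in DKO cSCC, against 113 and 96.5 CPM in old WT. Msn, or moesin, which ties actin to the membrane, was at 438, 408 and 358 CPM in DKO cSCC, against 80.4 and 214 CPM in old WT. Tpm2, a tropomyosin, was at 159.6, 208 and 137 CPM in DKO cSCC, against 17.9 and 79.7 CPM in old WT. All 4 were higher in every tumour library than in either control. Spp1, or osteopontin, was at 11.6, 5.72 and 16.9 CPM in DKO cSCC, against 0.410 and 3418 CPM in old WT, so its sign turned on old WT 2 alone (log2 fold change -7.19, and 4.78 without it). The summed level of the mesenchymal list was 4279, 4727 and 4323 CPM in DKO cSCC, against 999.9 and 6567 CPM in old WT, and its median log2 fold change was 1.04, or 2.34 without old WT 2. Fibroblast markers moved with it: their median was 0.21, and 2.64 without old WT 2, and their part in the result was not tested.

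Junction genes went both ways. Of 36 tested members, 5 were higher with no overlap and 10 lower (27.8%, against 16.9% of all genes tested). There were 5 higher and 16 lower without the library labelled DKO cSCC 3, and 6 higher and 21 lower without old WT 2. Leaving out old WT 1 instead gave 14 higher and 12 lower. The desmosomal and adherens cadherins of basal cells were among those higher: Dsg3 was at 478, 559 and 210.2 CPM in DKO cSCC, against 116 and 37.6 CPM in old WT. Cdh3, or P-cadherin, was at 332, 223 and 83.2 CPM in DKO cSCC, against 42.6 and 41.5 CPM in old WT. Cdh3 passed in the fit of 20 (edgeR adjusted p = 0.023). Tight junction genes were among those lower. Marveld2, or tricellulin, was at 2.96, 3.79 and 7.31 CPM in DKO cSCC, against 25.5 and 13.4 CPM in old WT, and it also passed there (edgeR adjusted p = 0.0281). Its relative Marveld3 was at 5.03, 4.48 and 10.3 CPM in DKO cSCC, against 18.1 and 44.7 CPM in old WT. The claudin gene Cldn8 was at 1.33, 1.16 and 3.21 CPM in DKO cSCC, against 5.99 and 23.8 CPM in old WT. Cgn, or cingulin, was at 7.92, 4.25 and 37.4 CPM in DKO cSCC, against 73.6 and 131 CPM in old WT. All 4 were lower in every tumour library, by least in the library labelled DKO cSCC 3. Of 24 tested regulators of epithelial identity, 2 were higher with no overlap and 4 lower, the lower share close to that of all genes. The list had 2 higher and 7 lower without the library labelled DKO cSCC 3, and 2 higher and 14 lower without old WT 2. With old WT 1 left out it had 8 higher and 7 lower. Gata3, a transcription factor of epidermis, hair follicle and mammary gland, was at 103, 89.0 and 132 CPM in DKO cSCC, against 508 and 197 CPM in old WT (log2 fold change -1.70, SE 0.43, edgeR adjusted p = 0.213). Elf5, known for the mammary gland, was at 0.222, 1.62 and 3.03 CPM in DKO cSCC, against 14.8 and 151 CPM in old WT.

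Simple epithelial keratins, which form the filaments of glands and other single-layered epithelia, were lower in all 4 tested members with no overlap. Krt8 was at 2.37, 0.386 and 0.535 CPM in DKO cSCC, against 51.3 and 259 CPM in old WT. Its partner Krt18 was at 14.1, 2.16 and 0.268 CPM in DKO cSCC, against 49.2 and 358 CPM in old WT. Krt19 was at 1.04, 0.464 and 0.0892 CPM in DKO cSCC, against 40.5 and 172 CPM in old WT. Krt7 was at 1.41, 0.386 and 4.90 CPM in DKO cSCC, against 10.2 and 37.9 CPM in old WT. Old WT 2 was the highest library in each, and old WT 1 was above every tumour library too. Krt19 alone passed in the fit of 20 (edgeR adjusted p = 0.0369). The milk genes described next were also highest in old WT 2, by a larger margin over old WT 1. Csn3, or kappa-casein, had the smallest p of the genes lower in DKO cSCC that could be named, at 0.0740, 0 and 0.0892 CPM in DKO cSCC, against 29.6 and 2194 CPM in old WT (log2 fold change -14.07, SE 1.96, edgeR adjusted p = 0.163). The other caseins Csn2 and Csn1s1 were at 43.1 and 8493 CPM and 104 and 7215 CPM in old WT and at most 0.178 CPM in any DKO cSCC library. Csn1s2a was at 0 in all 3 DKO cSCC libraries, against 9.76 and 7373 CPM in old WT. Btn1a1, a protein of the milk fat globule membrane, was at 0.148, 0 and 0.624 CPM in DKO cSCC, against 11.5 and 969 CPM in old WT. Trf, or transferrin, was at 2.59, 4.87 and 15.9 CPM in DKO cSCC, against 90.8 and 5979.8 CPM in old WT. Igfbp5, which binds insulin-like growth factors, was at 4.37, 21.9 and 57.9 CPM in DKO cSCC, against 155 and 5377 CPM in old WT. Both were highest in old WT 2. Of 14 mammary genes, listed after the data were seen and including Krt8, Krt18 and Elf5, 10 were tested and all 10 were lower with no overlap. The other 4 (Wap, Lalba, Glycam1 and Csn1s2b, milk proteins named after their values were seen) were at 0 in the 3 DKO cSCC libraries and in old WT 1. The count of 10 lower is no test, because the list was drawn from these data. A member such as Csn1s2a could pass the filter on low counts only through old WT. Young WT libraries had 0.381, 1.5 and 22.5 CPM of Csn3. The part of mammary cells in the lower simple keratins was not tested.

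**Figure D4:**
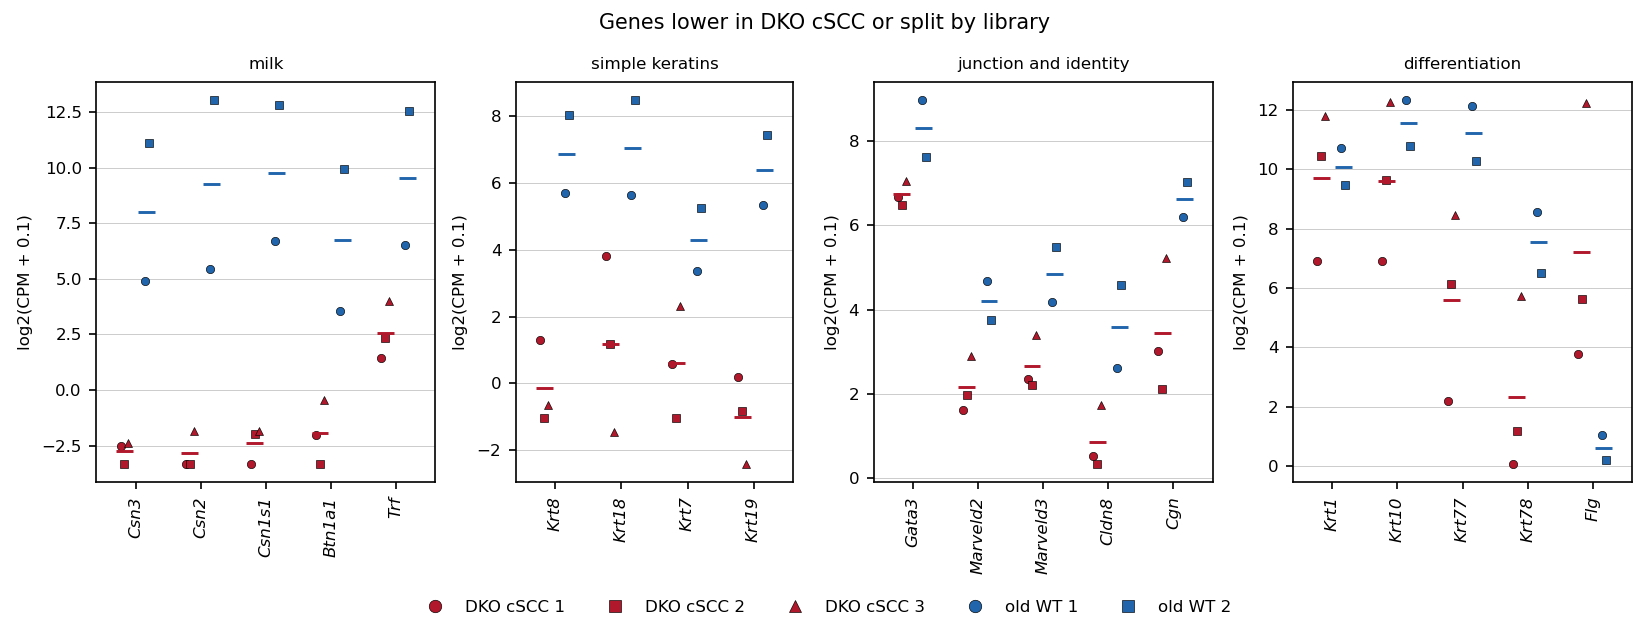
Levels by library of genes lower in DKO cSCC or split between its libraries (milk genes, simple keratins, junction and identity genes, differentiation genes), as log2(CPM + 0.1); red symbols are DKO cSCC, blue symbols old WT, and bars the mean of the log values. Old WT 2 (blue squares) is the highest library for the milk genes and simple keratins, and the triangle of DKO cSCC 3 is the highest red symbol for the differentiation genes.

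Of 24 glycolysis genes, 12 were higher with no overlap and 0 lower, against 18% and 16.9% of all genes (median log2 fold change 1.0), and 8 passed in the fit of 20 and 8 with DESeq2, all higher. Hk2, the hexokinase that commits glucose to the pathway in many tumours, was at 65.4, 86.3 and 71.4 CPM in DKO cSCC, against 13.9 and 19.7 CPM in old WT (log2 fold change 2.17, SE 0.34, edgeR adjusted p = 0.163). Slc2a1, the glucose transporter GLUT1, was at 208, 327 and 84.3 CPM in DKO cSCC, against 46.7 and 38.0 CPM in old WT. Slc16a3, a lactate exporter, was at 52.2, 57.5 and 6.51 CPM in DKO cSCC, against 2.54 and 1.44 CPM in old WT. The glycolytic enzyme Pkm was at 714, 1148 and 488 CPM in DKO cSCC, against 195 and 286 CPM in old WT. Pgk1, another, was at 164, 179 and 66.5 CPM in DKO cSCC, against 37.2 and 48.3 CPM in old WT. Tpi1 was at 136, 146 and 79.0 CPM in DKO cSCC, against 44.2 and 43.6 CPM in old WT. Each was higher in every tumour library, with the library labelled DKO cSCC 3 the lowest of the 3 for all but Hk2. Among 23 hypoxia response genes, 6 were higher with no overlap and 1 lower, against the same shares. These counts became 14 higher and 1 lower without the library labelled DKO cSCC 3, and 12 higher and 2 lower without old WT 2. Car12, a surface carbonic anhydrase, was at 203, 199 and 112 CPM in DKO cSCC, against 27.7 and 27.9 CPM in old WT (log2 fold change 2.65, SE 0.41, edgeR adjusted p = 0.163). Anln, or anillin, which is in the hypoxia list but best known for cytokinesis, was at 60.7, 68.7 and 39.0 CPM in DKO cSCC, against 7.95 and 6.91 CPM in old WT. P4ha1, a collagen prolyl hydroxylase, was at 58.9, 62.5 and 32.5 CPM in DKO cSCC, against 30.8 and 22.2 CPM in old WT. In cholesterol synthesis, 10 of 22 tested members were higher in DKO cSCC with no overlap and 0 were lower, and 3 passed in the fit of 20. Members with no overlap numbered 10 higher and 3 lower without old WT 2. Insig1, which holds back the sterol sensor, was at 16.4, 18.2 and 25.2 CPM in DKO cSCC, against 5.33 and 7.97 CPM in old WT. Ebp, a sterol isomerase, was at 19.9, 44.5 and 20.4 CPM in DKO cSCC, against 12.7 and 10.9 CPM in old WT. Antioxidant genes of the NRF2 list had 11 of 30 members higher with no overlap and 3 lower. There were 20 higher and 3 lower without old WT 2, but 12 higher and 10 lower without old WT 1. Gpx2, a glutathione peroxidase of epithelia, was at 12.1, 11.5 and 8.03 CPM in DKO cSCC, against 0.410 and 0.607 CPM in old WT. Txn1, or thioredoxin, was at 64.7, 68.3 and 31.7 CPM in DKO cSCC, against 15.7 and 23.1 CPM in old WT.

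The signalling lists described here had medians from -0.04 to 0.22, against 0.02 over all genes. EGF receptor genes had a median log2 fold change of -0.01, with 5 of 26 higher and 3 lower with no overlap, against 18% and 16.9% of all genes, so the higher share was that of the background. The list had 9 higher and 7 lower without the library labelled DKO cSCC 3, and 9 higher and 7 lower without old WT 2. The ligand Tgfa was at 17.6, 13.9 and 10.2 CPM in DKO cSCC, against 3.69 and 2.43 CPM in old WT (log2 fold change 2.21, SE 0.40, edgeR adjusted p = 0.165). Ereg, another ligand, was at 5.48, 1.55 and 0.803 CPM in DKO cSCC, against 0.0820 and 0 CPM in old WT. Etv4, a transcription factor induced by the pathway, was at 45.9, 23.8 and 7.94 CPM in DKO cSCC, against 4.02 and 3.04 CPM in old WT. Dusp6, a phosphatase that dampens it, was at 119, 53 and 26.8 CPM in DKO cSCC, against 15.1 and 22.8 CPM in old WT. All 4 were higher in every tumour library, highest in DKO cSCC 1. Erbb4, a receptor of the family, was at 0.0740, 0.0773 and 0.268 CPM in DKO cSCC, against 3.28 and 9.94 CPM in old WT, the reverse direction. Of 34 p53 target genes, 10 were higher and 3 lower with no overlap, against the same shares, and the median was -0.04. These counts became 12 higher and 9 lower without the library labelled DKO cSCC 3, and 14 higher and 10 lower without old WT 2. Ckap2, which is also made at mitosis, was at 17.5, 26.4 and 13 CPM in DKO cSCC, against 3.77 and 3.26 CPM in old WT. Gtse1, likewise, was at 11.2, 15.8 and 8.83 CPM in DKO cSCC, against 2.79 and 1.82 CPM in old WT. Phlda3, a p53-induced inhibitor of Akt, was at 36.6, 45.4 and 39.1 CPM in DKO cSCC, against 24.0 and 11.8 CPM in old WT. Pmaip1, or Noxa, an inducer of cell death, was at 16.1, 14.5 and 15.0 CPM in DKO cSCC, against 5.66 and 5.54 CPM in old WT (log2 fold change 1.46, SE 0.31, edgeR adjusted p = 0.167). In the Wnt list, 8 of 34 were higher and 3 lower, against the same shares. Members with no overlap numbered 11 higher and 5 lower without the library labelled DKO cSCC 3, and 11 higher and 7 lower without old WT 2. Sostdc1, a secreted inhibitor of Wnt and BMP, was at 206, 148 and 143 CPM in DKO cSCC, against 37.6 and 9.49 CPM in old WT. The ligand Wnt5b was at 3.18, 2.40 and 2.50 CPM in DKO cSCC, against 9.59 and 48.2 CPM in old WT, lower in every tumour library. Trp73, a p53 relative counted in the squamous carcinoma list, was at 36.1, 35.8 and 21.5 CPM in DKO cSCC, against 10.7 and 2.66 CPM in old WT. In the TGF-beta list, 9 of 29 were higher and 2 lower, against the same shares. There were 18 higher and 6 lower without old WT 2. The ligand Bmp7 was at 71.4, 45.7 and 67.2 CPM in DKO cSCC, against 30.5 and 15.9 CPM in old WT. Tgfb3, also a ligand, was at 18.8, 43.4 and 30.5 CPM in DKO cSCC, against 28.8 and 434 CPM in old WT, high in old WT 2 alone. Tgfbi, a matrix protein induced by the pathway, was at 223, 366 and 262 CPM in DKO cSCC, against 167 and 112 CPM in old WT. The Notch list had 5 of 21 higher and 1 lower, against the same shares. The list had 6 higher and 4 lower without the library labelled DKO cSCC 3, and 11 higher and 4 lower without old WT 2. The ligand Jag1 was at 182, 118 and 105 CPM in DKO cSCC, against 76.8 and 43.9 CPM in old WT. Jag2, the other Jagged ligand, was at 309.9, 223 and 163 CPM in DKO cSCC, against 141 and 50.1 CPM in old WT.

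Of 38 interferon-stimulated genes, 13 were higher with no overlap and 0 lower, against 18% and 16.9% of all genes. These counts became 31 higher and 1 lower without old WT 2, but 16 higher and 9 lower without old WT 1. Xaf1, which promotes cell death, was at 30.0, 27.5 and 15.9 CPM in DKO cSCC, against 2.38 and 2.43 CPM in old WT (log2 fold change 3.37, SE 0.41, edgeR adjusted p = 0.163). Oas1a, a sensor of double-stranded RNA, was at 9.40, 13.4 and 7.22 CPM in DKO cSCC, against 0.164 and 0.607 CPM in old WT. Ifi27l2a, an interferon-induced mitochondrial protein, was at 22.7, 19.6 and 4.64 CPM in DKO cSCC, against 0.246 and 1.29 CPM in old WT. Isg15, a ubiquitin-like modifier, was at 8.81, 10.4 and 3.39 CPM in DKO cSCC, against 0.328 and 0.911 CPM in old WT. The list's median was 0.49, and 1.94 without old WT 2. Among chemokines and cytokines, 10 of 35 were higher and 3 lower, against the same shares. Members with no overlap numbered 20 higher and 3 lower without the library labelled DKO cSCC 3, and 22 higher and 4 lower without old WT 2. Cxcl16 was at 92.1, 64.4 and 71.9 CPM in DKO cSCC, against 20.8 and 34.2 CPM in old WT. Il1b was at 11.6, 11.5 and 13.5 CPM in DKO cSCC, against 0.164 and 1.06 CPM in old WT. Tnf was at 24.9, 24.7 and 16.9 CPM in DKO cSCC, against 1.80 and 5.69 CPM in old WT, and each was higher in every tumour library. T cell markers went the other way: 13 of 23 were lower with no overlap and 1 higher, against 16.9% and 18% of all genes (median -2.19). Cd3g, a chain of the T cell receptor complex, was at 0.592, 4.02 and 20.3 CPM in DKO cSCC, against 36.9 and 77.9 CPM in old WT. Cd3e was at 1.63, 2.78 and 13.5 CPM in DKO cSCC, against 32.1 and 59.4 CPM in old WT. Their summed level was 59.4, 129.6 and 191 CPM in DKO cSCC, against 226 and 583 CPM in old WT. Macrophage and neutrophil markers had 0 of 19 higher and 1 lower. The counts were 15 higher and 1 lower without old WT 2, but 0 higher and 18 lower without old WT 1. The median of these markers turned with old WT 2 (-1.05 with it and 3.46 without it). Langerhans and dendritic cell markers had 0 of 18 apart in either direction with all 5 libraries. There were 0 higher and 4 lower without the library labelled DKO cSCC 3, and 9 higher and 0 lower without old WT 2. With old WT 1 left out, 0 of these markers were higher and 6 lower. Their median was 0.37, but -0.99 without the library labelled DKO cSCC 3 and 2.58 without old WT 2. Endothelial and mural markers had a median of 1.61, and -0.06 without the library labelled DKO cSCC 3.

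With no overlap, 2 of 21 barrier lipid genes were higher and 2 lower, against 18% and 16.9% of all genes. The list had 2 higher and 7 lower without the library labelled DKO cSCC 3, and 3 higher and 10 lower without old WT 2. For hair follicle genes the counts were 6 and 3 of 30, and for sebaceous lipid genes 3 and 3 of 22. For the sebaceous list, the counts were 3 higher and 12 lower without the library labelled DKO cSCC 3. The sebaceous median was -0.08, but -1.30 without the library labelled DKO cSCC 3 and 0.41 without old WT 2. For YAP/TAZ targets they were 4 and 2 of 26, and for squamous carcinoma genes 8 and 4 of 34. For the YAP/TAZ list, the counts were 10 higher and 7 lower without old WT 2. For the squamous carcinoma list, the counts were 14 higher and 5 lower without the library labelled DKO cSCC 3, and 14 higher and 8 lower without old WT 2. Erythrocyte markers had 0 higher and 2 lower of 7, and muscle and adipocyte markers 2 and 1 of 8.

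**Figure D5:**
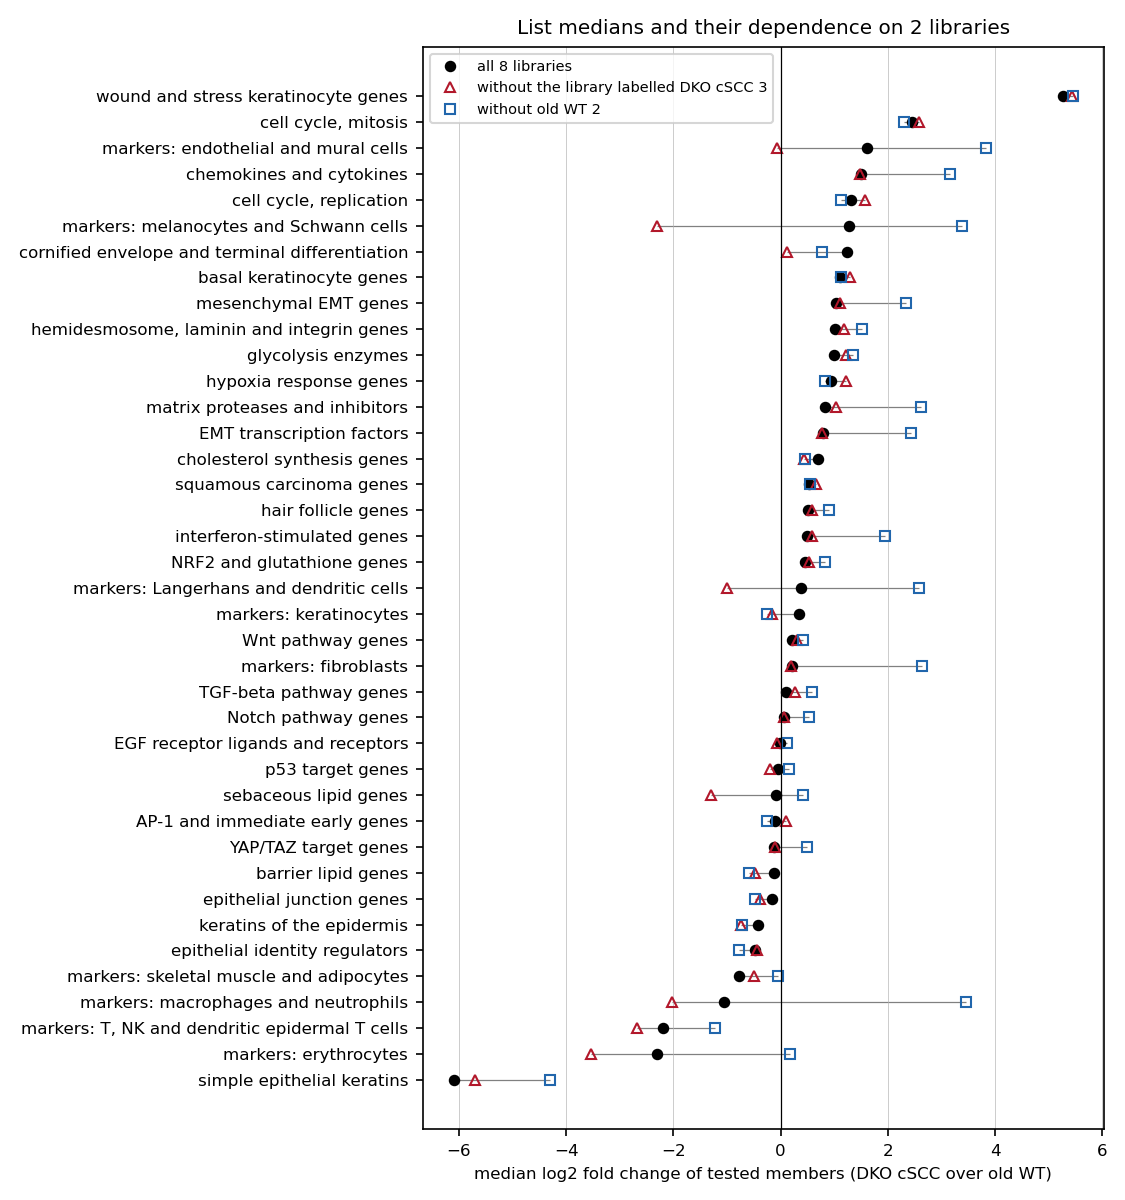
Median log2 fold change (DKO cSCC over old WT) of the tested members of each list other than the mammary one, with all 8 libraries in the fit (black dots), without the library labelled DKO cSCC 3 (red triangles) and without old WT 2 (blue squares). The mitosis, replication, wound and basal lists keep their place, whereas the macrophage list has a median of -1.05 in all 8 libraries but 3.46 without old WT 2, and the melanocyte and Schwann cell list has 1.27 but -2.31 without DKO cSCC 3.

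Other genes with the smallest p came from no list. Higher in every tumour library were Robo2, a receptor for Slit guidance proteins, at 34.3, 35.9 and 25.2 CPM in DKO cSCC, against 5.58 and 5.84 CPM in old WT (log2 fold change 2.50, SE 0.32, edgeR adjusted p = 0.163). Enah, or Mena, which lengthens actin filaments at the leading edge, was at 129.6, 183 and 158 CPM in DKO cSCC, against 31.0 and 31.4 CPM in old WT. Map6, which stabilises microtubules, was at 19.3, 20.6 and 29.5 CPM in DKO cSCC, against 3.03 and 4.86 CPM in old WT. C1qtnf12, a secreted C1q-like protein, was at 42.3, 39.3 and 41.2 CPM in DKO cSCC, against 10.7 and 9.41 CPM in old WT. Rnf152, a ubiquitin ligase of lysosomes, was at 13, 19.0 and 12.9 CPM in DKO cSCC, against 0.984 and 1.75 CPM in old WT. Piwil2, a PIWI protein known from the germ line, was at 30.6, 24.7 and 16.7 CPM in DKO cSCC, against 1.72 and 0.607 CPM in old WT. Each of these 6 passed in the fit of 20 libraries, with adjusted p from 0.0135 (Enah and Rnf152) to 0.0301 (Piwil2). Some genes stood out by the size of their level. Plec, or plectin, the linker of keratin to hemidesmosomes, was at 2810.3, 3046 and 3929 CPM in DKO cSCC, against 2021 and 941 CPM in old WT. Myh9, a non-muscle myosin, was at 1844, 1796 and 2379 CPM in DKO cSCC, against 898 and 1424 CPM in old WT. Rmrp, the RNA of the ribonuclease MRP, was at 8714, 3307 and 1194 CPM in DKO cSCC, against 806 and 426 CPM in old WT. Plec, Myh9 and Rmrp did not pass in the fit of 20 libraries either (edgeR adjusted p = 0.0827, 0.214 and 0.148). Lower in every tumour library was Trp53bp2, whose product ASPP2 binds p53, at 28.2, 33.6 and 38.6 CPM in DKO cSCC, against 107 and 104 CPM in old WT (log2 fold change -1.63, SE 0.27, edgeR adjusted p = 0.164). Young WT lay near the tumours for Trp53bp2, at 31.0, 39.4 and 40.9 CPM (log2 fold change of DKO cSCC against young WT -0.15). Mlxip, a glucose-sensing transcription factor, was at 25.9, 32.2 and 32.2 CPM in DKO cSCC, against 68.3 and 107 CPM in old WT. Zc3h7a, a zinc finger protein, was at 27.2, 31.5 and 24.7 CPM in DKO cSCC, against 67.7 and 68.2 CPM in old WT. These 3 passed in the fit of 20 libraries (adjusted p = 0.0201, 0.0172 and 0.0173). Lama1, a laminin chain, was at 0.370, 0.464 and 1.25 CPM in DKO cSCC, against 93.6 and 68.6 CPM in old WT. Arhgap8, a GTPase-activating protein, was at 1.55, 2.09 and 1.78 CPM in DKO cSCC, against 13.7 and 15.1 CPM in old WT. Firre, an X-linked long noncoding RNA, was at 30.5, 22.2 and 42.0 CPM in DKO cSCC, against 104 and 119.5 CPM in old WT. Malat1, a nuclear noncoding RNA, had the largest difference in level of those lower, at 3663, 2613 and 5829 CPM in DKO cSCC, against 10593 and 11218 CPM in old WT. Itprid1 was at 0, 0.0773 and 0.0892 CPM in DKO cSCC, against 6.23 and 59.6 CPM in old WT. Myo5c, a class V myosin of glandular epithelia, was at 0, 0.309 and 0.446 CPM in DKO cSCC, against 9.51 and 89.4 CPM in old WT. Klhdc7a, a kelch domain protein, was at 0.666, 1.16 and 1.16 CPM in DKO cSCC, against 10.7 and 65.1 CPM in old WT. All 3 were several times higher in old WT 2 than in old WT 1, and old WT 1 was above every tumour library. Every young WT library was below old WT 1 for these genes too.

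DKO cSCC and PKO cSCC share the 2 old WT libraries as control, so their comparisons are not independent. The median log2 fold change of the mitosis list was 2.45 in DKO cSCC and 3.08 in PKO cSCC, that of the wound list 5.26 and 5.13, and that of the glycolysis list 1.0 and 1.41. For the cornified envelope list the medians were 1.24 in DKO cSCC and -0.23 in PKO cSCC, but 0.12 in DKO cSCC without the library labelled DKO cSCC 3. For Wwox the log2 fold change was -3.52 (SE 0.59) in DKO cSCC and -0.29 (SE 0.56) in PKO cSCC. Against young WT epidermis (3 libraries, 100 to 120 days) in place of old WT, 512 genes were higher in DKO cSCC (2.9%) and 476 lower (2.7%), out of 17655 tested. The mitosis median was then 1.65, the wound median 2.80 and the basal keratinocyte median 1.98, while the mesenchymal median was -0.08. Other medians that turned negative against young WT were those of the EMT transcription factors (-1.23), the interferon-stimulated genes (-1.09) and the hair follicle genes (-1.14). Those of the fibroblast (-1.30), melanocyte and Schwann cell (-0.99) and Langerhans and dendritic cell markers (-0.0019) did so too. All were positive against old WT. Young WT 1 stood above the other young libraries in part of this. Interferon-stimulated genes summed to 2971, 593 and 406 CPM in young WT, against 547, 717 and 452 CPM in DKO cSCC. EMT transcription factors summed to 455, 199 and 207 CPM in young WT, against 136, 139 and 174 CPM in DKO cSCC. The medians of the junction genes (1.02), the identity regulators (1.10), the epidermal keratins (1.08) and the barrier lipid genes (1.14) were negative against old WT and positive against young WT. Those of the YAP/TAZ targets (0.98), the sebaceous lipid genes (0.69), the EGF receptor genes (0.59) and the AP-1 list (0.18) turned the same way.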

How the data were processed

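The authors deposited estimated counts (expected counts) for 51123 Ensembl genes in 20 libraries, already whole numbers; tools listed in the submitters' processing notes, without role or sequence, are Salmon 0.13.1, DESeq2 1.28.1, FastQC 0.11.5 and Trim Galore 0.4.1, and the build listed is mm39. The annotation release, and whether molecular identifiers were counted, are not given in the sources used here. Each of the 37 values with at least 7 digits was a multiple of 10. Symbols (48246 genes) and chromosomes came from a GENCODE annotation of GRCm38; promoter sequences are RefSeq's.

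The test used edgeR 4.0.16 under R 4.3.3 with the 3 DKO cSCC, 3 PKO cSCC and 2 old WT libraries: TMM scaling, filterByExpr defaults, quasi-likelihood F test, contrast DKO cSCC minus old WT, Benjamini-Hochberg adjustment over 16526 genes at 0.05. On simulated data the step was checked for the size and sign of its estimates. How many changed genes it can call is not given here. Levels are CPM scaled over all 20 libraries; "no overlap" means all 3 DKO cSCC above, or all below, both old WT libraries. A p measures only the spread between these samples. Depth is the total count per library, and floors (3 counts) cover counting error only. Gene lists (30 of pathways, 10 of markers) and members were chosen with earlier results of these data known, and the mammary list after seeing the files; 5 listed symbols had no row in the table. Genes were named by rule: per direction, the 12 with the smallest p and the 8 with the largest level difference among those with no overlap and a mean of 5 CPM or more in the higher group; up to 6 members per pathway list by p; all tested keratins of the keratin lists; Wwox, Trp53, Xist and Eif2s3y; and the 4 highest members of each marker list. Alternatives were RLE and TMMwsp scaling, no filter, a 10 CPM minimum, DESeq2 1.42.0, limma 3.58.1 voom, a robust prior, fits of 5 or 20 libraries, a replicate block, young WT as control, no mitochondrial genes, an adjusted p under 0.1, and each library left out.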

Additional observations from a re-analysis of the deposited data

How the results depend on the processing

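Counts of calls differed between the alternatives, some of which change the genes tested or the control as well: 450 higher and 338 lower in the fit of 20 libraries, 505 and 336 with DESeq2, 461 and 392 without a low-count filter, 1 and 0 with limma voom, and 512 and 476 with young WT as control, against 0 and 0 in edgeR's fit of 8. Leaving out each library gave 0 to 1 higher and 0 to 2 lower: 1 higher without DKO cSCC 1 and 2 lower without old WT 1. Genes with no overlap numbered 1952 higher and 1656 lower at a 10 CPM minimum, and 4286 lower without a filter. Without one library they ran from 3410 to 5461 higher and from 3166 to 5257 lower: 4707 and 4607 without DKO cSCC 3, 5048 and 5257 without old WT 1, and 5461 and 5155 without old WT 2. They were 6950 and 6580 without DKO cSCC 3 and old WT 2 together, an alternative chosen after seeing the data; with fewer libraries, more genes have no overlap by construction. Wwox passed with DESeq2 (log2 fold change -3.59), in the fit of 20 (-3.54), without a filter (-3.54) and against young WT (-2.95); without one library it ran from -3.96 to -3.13, and Trp53 from -3.39 to -0.33.

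Of 132 genes described by their values, 113 kept their sign under every alternative. A kept sign could still go with a much smaller difference: against young WT the log2 fold change was -0.15 for Trp53bp2 and -0.015 for Gata3. Against young WT the sign turned for Firre (0.65), Arhgap8 (1.61), Cd44 (-0.084), Msn (-0.47), Marveld3 (1.36), Cgn (0.84), Krt7 (0.071), Krt10 (2.33), Krt15 (1.08), Krt78 (0.17), Krt80 (0.59), Krt2 (-1.98), Wnt5b (0.093), Tgfb3 (1.48), Isg15 (-1.36) and Il1b (-1.18). Without old WT 2 it turned for Spp1 (4.78) and Tgfb3 (0.12), and without it and DKO cSCC 3 for both (4.41 and 0.14). Without old WT 1 it turned for Krt10 (0.18), Krt15 (0.26) and Krt23 (0.0083). Krt1 turned with limma voom (-0.94), the replicate block (-0.47), and without DKO cSCC 3 (-0.65) or it and old WT 2 (-1.13). With libraries left out, the other ends of these genes' ranges were -8.17 for Spp1, -3.76 for Tgfb3 and 1.30 for Krt1 (all without old WT 1), and -3.47 for Krt10, -1.91 for Krt15 and -1.04 for Krt23 (without DKO cSCC 3 and old WT 2). The cause was not tested. The median of the muscle and adipocyte markers could not be computed at the 10 CPM minimum, which none of its members met. The medians of 20 of 40 lists kept their sign under every alternative other than young WT. The labels do not say whether samples with the same replicate number have anything else in common. Deviations of same-numbered libraries from their group means correlated at 0.09 (number 1) and -0.05 (number 2). The deviations of the 2 old WT libraries mirror each other, so these values cannot settle that question. With the number as a block 0 genes were called in either direction. Depth limits genes near 3 counts per group.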
